A study of Mus musculus with 6 samples.

Results

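Transcripts of the mitotic machinery were compared between mouse embryonic stem (ES) cells that keep 1 working copy of Dicer and ES cells that have none. The set of 50 genes holds the mitotic cyclins and kinases, the spindle checkpoint, the activators and brakes of anaphase, the kinetochore, the spindle motors and condensin. Its members were listed by gene function, with earlier results of these data known, and the rule uses no measured difference. Each gene was read through 1 probe set, a group of short probes on an Affymetrix array, namely, of the probe sets annotated with that gene alone, the one brightest on average over the 6 arrays. Of the 50 genes, 49 had such a probe set and all 49 passed the filter on low intensity, among 12927 genes tested in all. The exception was Ccnb1, for which no probe set was found in the annotation used here, and cyclin B1 is therefore not analysed here.

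The heterozygous line, D4, is Dicer +/-, and the null line, 27H in the sample titles and 27H10 in the series title, is Dicer -/-. Both were undifferentiated ES cell lines, each measured on 3 arrays. Nothing in the labels says that replicate arrays stem from separate cultures. The p-values therefore cover only how far these samples lie apart, a spread that may be technical. Each genotype is 1 line, so a difference of genotype and a difference between lines cannot be told apart.

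Dicer is the ribonuclease that makes microRNAs by cutting their precursors, and in fission yeast it also acts in the silencing of centromeric heterochromatin. In mitosis, Cdk1 bound to cyclin A and cyclin B drives entry, the kinetochore assembles on centromeric chromatin marked by the histone variant CENP-A, and microtubules attach to it. The spindle checkpoint holds back the anaphase-promoting complex (APC/C) until attachment is complete, after which securin and the cyclins are destroyed and separase opens cohesin. Many of the transcripts peak late in the cell cycle, through repression and activation by complexes built on the MuvB core, which bind the CHR promoter element beside CCAAT boxes. Mouse ES cells cycle rapidly, with a short gap before replication.

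Every array had a mean of 500 after trimming 2% of its probe sets at each end, and its median was 49.1 to 52.7 in heterozygous and 44.9 to 46.5 in null cells. On each array 56.9% to 60.3% of probe sets read 32 or more. Intensities are in arbitrary units, and levels are not compared between genes because each is read by other probes. The transcript of Dicer1 itself did not pass, although every null array lay above every heterozygous array, with 1098 ± 39.2 (heterozygous) and 1197 ± 62.2 (null; SD, n = 3) on the brighter of its probe sets (limma adjusted p over all probe sets 0.264); where the deletion lies relative to that probe set is not given in the sources used here, so this does not check the labels. All 10 ES cell markers were read, with summed intensities of 104896 to 109211 in heterozygous and 96777 to 101529 in null arrays, and 4 of them (Tdgf1, Utf1, Tcl1 and Klf4) passed lower in null cells. The 11 fibroblast markers summed to 716 to 753 in heterozygous and 922 to 1041 in null arrays, 1 of them being under 32 on all arrays, and the 10 primitive endoderm markers to 1131 to 1632 and 498 to 526, again with 1 under 32 throughout. Single fibroblast markers went both ways. The collagen gene Col1a1 read 38.3 to 90.9 in heterozygous and 4.44 to 7.99 in null arrays, and the decorin gene Dcn 16.03 to 58.4 and 203 to 316. Col1a2, Col3a1 and Thy1 were also lower on every null array, and Col5a2 was higher on every null array. Of the endoderm markers, Dab2 read 606 to 827 in heterozygous and 141 to 179 in null arrays. Of the 8 endoderm markers tested, 3 passed at least 2-fold lower (6.2% of all genes) and 0 passed higher. The part of other cell types in the differences below was not tested.

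Mitotic genes moved in both directions, mostly by well under 2-fold. With differences taken as null minus heterozygous on the log2 scale and a gene said to pass at a limma adjusted p under 0.05 over all 12927 genes, 11 members passed higher in null cells, 17 passed lower and 21 did not pass. The 11 higher are 22.4% of the 49, a share close to the 24.5% of all tested genes that passed higher. The 17 lower are 34.7%, where 24.3% of all tested genes passed lower. These shares depend on the filter. With the filter on low intensity raised to a log2 value of 7, the member shares were unchanged. Of the 9559 genes then tested, 31.5% passed higher and 29.9% lower. At least 2-fold higher was 1 member, Zwint (all genes 7.23%), and at least 2-fold lower was 1, Cenpa (all genes 6.2%). For 34 members (69.4%), all arrays of one line lay above all of the other, against 57.2% of all tested genes.

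The members' differences ran from -1.13 to 1.28 with a median of -0.14, and the median of all genes was -0.01. Their sizes were small: the median size was 0.28 on the log2 scale, against 0.42 over all genes, and the 95% interval of the difference lay within 2-fold in both directions for 47 members (95.9%; 59.8% of all genes). Replicate arrays also spread less for these genes, with a median SD of 0.084 (heterozygous) and 0.096 (null) on the log2 scale, against 0.140 and 0.149 over all genes. The members were also brighter, with an array median of 11.60 to 11.78 on the log2 scale, against 8.78 to 8.87 over all genes. Sizes, intervals, overlap and spread were not compared at equal brightness. In RNA from a whole culture, fewer cells of a type or cell cycle phase and less RNA per cell cannot be told apart. Centring each array on its own median shifted every gene's difference alike and moved their median to 0.14. There, 18 members passed higher (36.7%; 32.3% of all genes) and 7 lower (14.3%; 16.3% of all genes), and Cenpa at -0.97 no longer reached 2-fold. The members that passed higher there and not in the main scaling, were Top2a, Plk4, Bub1, Cdc20, Fzr1, Nuf2 and Smc4, with differences of 0.18 to 0.36 and adjusted p of 0.00737 to 0.048. Quantile normalization gave 11 higher and 17 lower, as in the main scaling.

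**Figure D1:**
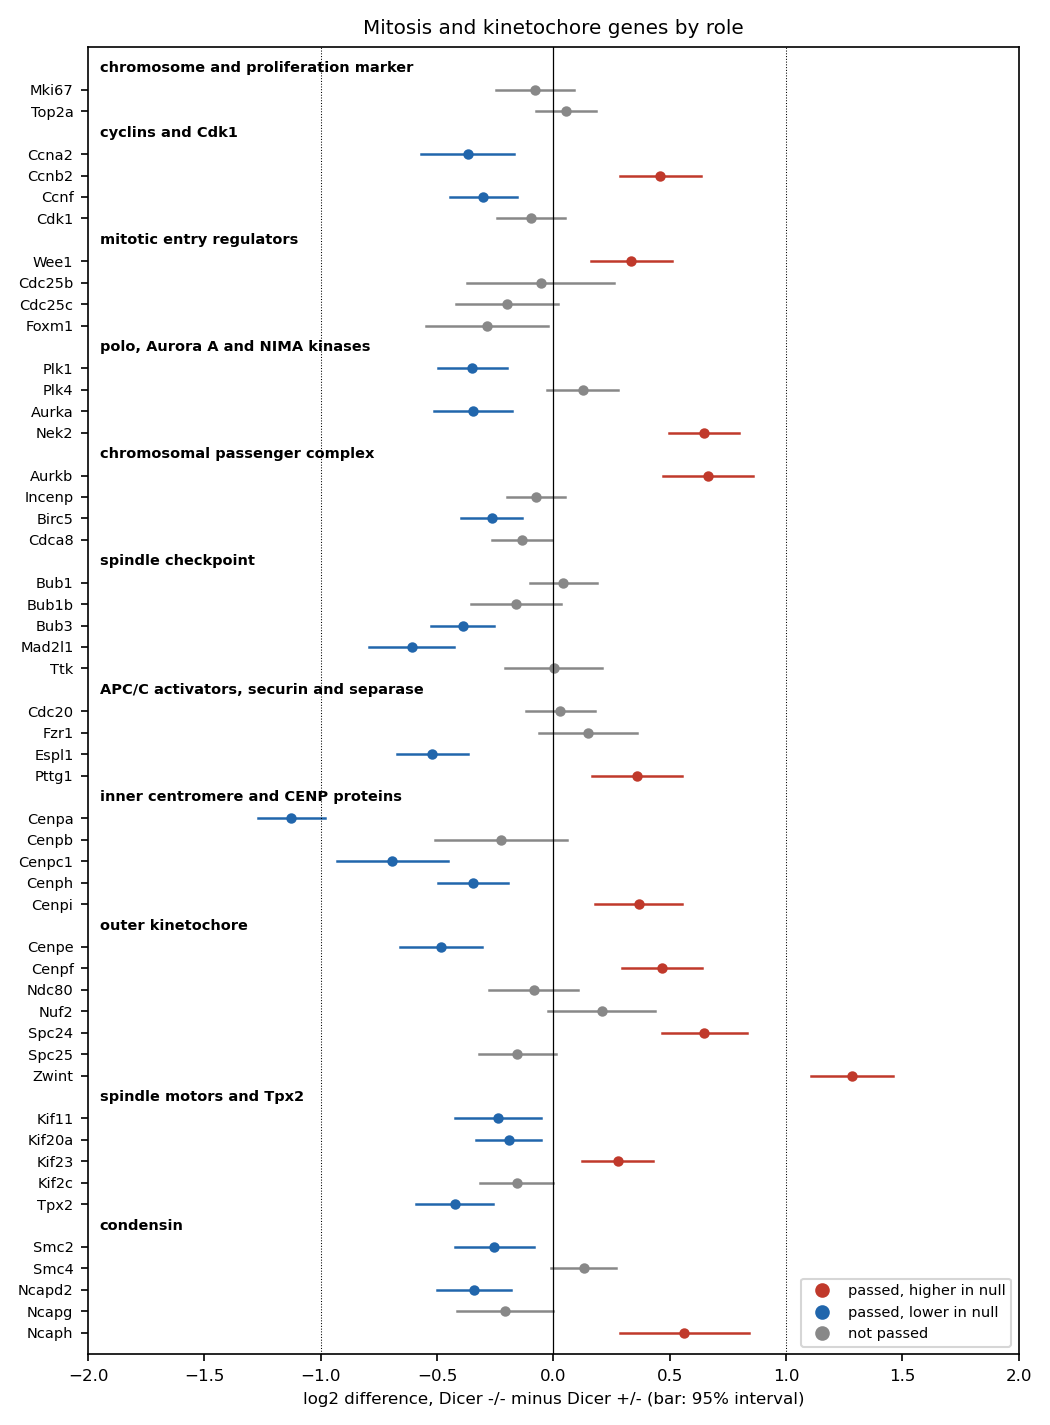
Log2 difference (null minus heterozygous) of the 49 measured members, grouped by role, with points at the estimate, bars as 95% intervals and colour for the result of the test. Zwint at 1.28 and Cenpa at -1.13 stand at the ends, and the other members lie between -0.69 and 0.67.

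Promoters of 4 members are shown, those with the largest differences in each direction among passing members with an entry. They were not chosen to stand for the set, and of them only Cenpa has CHR letters. RefSeq promoters of assembly GRCm38.p6, 250 bases before to 50 after the annotated start, were matched by symbol for 40 of the 50 members, which gave 41 promoters. The stretches printed run from 200 bases before to 30 after the start, 5′ to 3′ on the gene's strand, with matched letters in capitals. Zwint lies at chr10:72654646-72654875 (plus strand), Nek2 at chr1:191821273-191821502 (plus), Cenpa at chr5:30666686-30666915 (plus) and Cenpc1 at chr5:86065554-86065783 (minus).
Zwint: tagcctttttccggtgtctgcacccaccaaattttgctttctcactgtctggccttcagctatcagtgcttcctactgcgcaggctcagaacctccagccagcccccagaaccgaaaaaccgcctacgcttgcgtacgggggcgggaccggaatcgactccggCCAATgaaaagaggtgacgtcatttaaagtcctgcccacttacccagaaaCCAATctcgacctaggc
Nek2: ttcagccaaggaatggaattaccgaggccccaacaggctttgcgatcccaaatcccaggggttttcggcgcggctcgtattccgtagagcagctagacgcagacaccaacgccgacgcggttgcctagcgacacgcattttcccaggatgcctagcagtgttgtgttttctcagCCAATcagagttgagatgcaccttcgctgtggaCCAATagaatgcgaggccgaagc
Cenpa: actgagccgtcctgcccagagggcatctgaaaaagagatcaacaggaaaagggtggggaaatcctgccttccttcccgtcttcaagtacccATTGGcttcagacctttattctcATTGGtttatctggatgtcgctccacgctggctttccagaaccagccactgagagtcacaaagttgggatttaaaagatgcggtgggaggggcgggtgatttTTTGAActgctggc
Cenpc1: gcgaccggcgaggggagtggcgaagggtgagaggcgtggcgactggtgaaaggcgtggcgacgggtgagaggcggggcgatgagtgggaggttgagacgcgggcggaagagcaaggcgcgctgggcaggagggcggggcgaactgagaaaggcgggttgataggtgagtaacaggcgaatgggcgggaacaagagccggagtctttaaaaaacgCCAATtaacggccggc
Counting the start as base 1, Zwint has CCAAT beginning at bases -37 and 14, Nek2 at -26 and 8, and Cenpc1 at 15. Cenpa has the CHR letters TTTGAA at base 17 and CCAAT on the other strand, read as ATTGG, at -109 and -86. Zwint, Nek2 and Cenpc1 had no CHR letters in their 300 bases.

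The CHR letters (TTTGAA or TTCGAA, either strand) were found in 26 of the 41 member promoters (63.4%), against 19.2% of the 32851 promoters in the table. CCAAT, the letters bound by NF-Y, was found on either strand in 32 (78.05%), against 37.4% of all, and in 2 or more copies in 19 (46.3%; 11.7% of all). Both CHR and CCAAT letters were in 24 (58.5%), against 7.52% of all. Letters of the E2F site (TTTGGCGC, TTTCGCGC, TTTCCCGC or TTTGGCGG, either strand) were in 4 (9.76%; 2.37% of all). By result in the arrays, CHR letters were in 3 of 8 promoters of members that passed higher, 10 of 15 of those that passed lower and 13 of 17 of those that did not pass. CCAAT was in 6, 13 and 12 of the same promoters. These are counts of letters, with no test, and a match is not evidence of binding.

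Counts by role, here and below, are to be read against all tested genes, of which 24.5% passed higher and 24.3% lower. The centromere held the largest decrease of the set. Of the 5 measured genes of the inner centromere, 3 passed lower (Cenpa, Cenpc1, Cenph), 1 passed higher (Cenpi) and 1 did not pass, with a median of -0.34. Cenpa, which encodes the centromeric histone variant, read 3999.6, 4151 and 4384 in heterozygous and 1941, 1871 and 1927 in null cells. All 3 null arrays lay far under all heterozygous arrays, and the null arrays were close to each other. Levels were 2.18-fold lower in null cells (log2 difference -1.13 ± 0.07 (SE), adjusted p = 1.94e-07). Cenpc1 encodes CENP-C, which links CENP-A chromatin to the outer kinetochore, and read 937, 914 and 889 in heterozygous and 624, 482 and 598 in null cells. The groups were separate, and the transcript was 1.62-fold lower (log2 difference -0.69 ± 0.11 (SE), adjusted p = 2.81e-04). Cenph, a subunit of the constitutive centromere network, read 1829, 1868 and 1776 in heterozygous and 1445, 1423 and 1443 in null cells. It was lower on each null array (log2 difference -0.34 ± 0.07 (SE), adjusted p = 0.00148), although with arrays centred on their medians it no longer passed. Cenpi, another subunit of that network and the only measured member on the X chromosome, went the other way, with 875, 885 and 780.0 in heterozygous and 1128, 1058 and 1083 in null cells (log2 difference 0.37 ± 0.08 (SE), adjusted p = 0.00398). Cenpb, the protein that binds the centromeric repeat, did not pass at -0.22 (95% interval -0.51 to 0.06).

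The outer kinetochore held the largest increase. Of its 7 genes, 3 passed higher (Zwint, Spc24 and Cenpf), 1 lower (Cenpe) and 3 did not pass, with a median of 0.21. Zwint, which tethers the RZZ complex to the kinetochore scaffold, read 4278, 4192 and 4178 in heterozygous and 11081, 10837 and 8997 in null cells. On this probe set every null array was above every heterozygous array, null replicate 3 being the lowest of the null arrays, a 2.43-fold increase (log2 difference 1.28 ± 0.08 (SE), adjusted p = 3.13e-07). The other tested probe sets of Zwint ran from -1.45 to 0.76. With the mean over its probe sets, Zwint did not pass (-0.0032, adjusted p = 0.976). Spc24, a subunit of the microtubule-binding Ndc80 complex, read 2215, 2117 and 1853 in heterozygous and 3416, 3251 and 3016 in null cells. Its groups did not overlap and the level was 1.57-fold higher (log2 difference 0.65 ± 0.08 (SE), adjusted p = 6.57e-05). The other Ndc80 complex members did not pass, with differences of -0.08 for Ndc80, 0.21 for Nuf2 and -0.16 for Spc25, and their 95% intervals were -0.27 to 0.11, -0.02 to 0.44 and -0.32 to 0.01. Nuf2 passed higher with arrays centred on their medians (0.36, adjusted p = 0.0127). Spc25 did pass without null replicate 3 (adjusted p = 0.0472) and with array weights (0.0402). Cenpf, a large corona protein, read 2139, 2268 and 2363 in heterozygous and 2948, 2991 and 3435 in null cells, higher on every null array (log2 difference 0.47 ± 0.08 (SE), adjusted p = 4.74e-04). Cenpe, the corona motor that moves chromosomes to the metaphase plate, read 1945, 1870.2 and 1673 in heterozygous and 1291, 1261 and 1369 in null cells. It was 1.4-fold lower (log2 difference -0.48 ± 0.08 (SE), adjusted p = 4.61e-04), so that the transcripts of these corona proteins moved in opposite directions in the main fit. With chromosomes centred, Cenpf, on chromosome 1, no longer passed (0.13, adjusted p = 0.224). The dimmer tested probe sets of Cenpf, at 0.02 and 0.31, did not pass, nor did that of Cenpe, at -0.27.

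**Figure D2:**
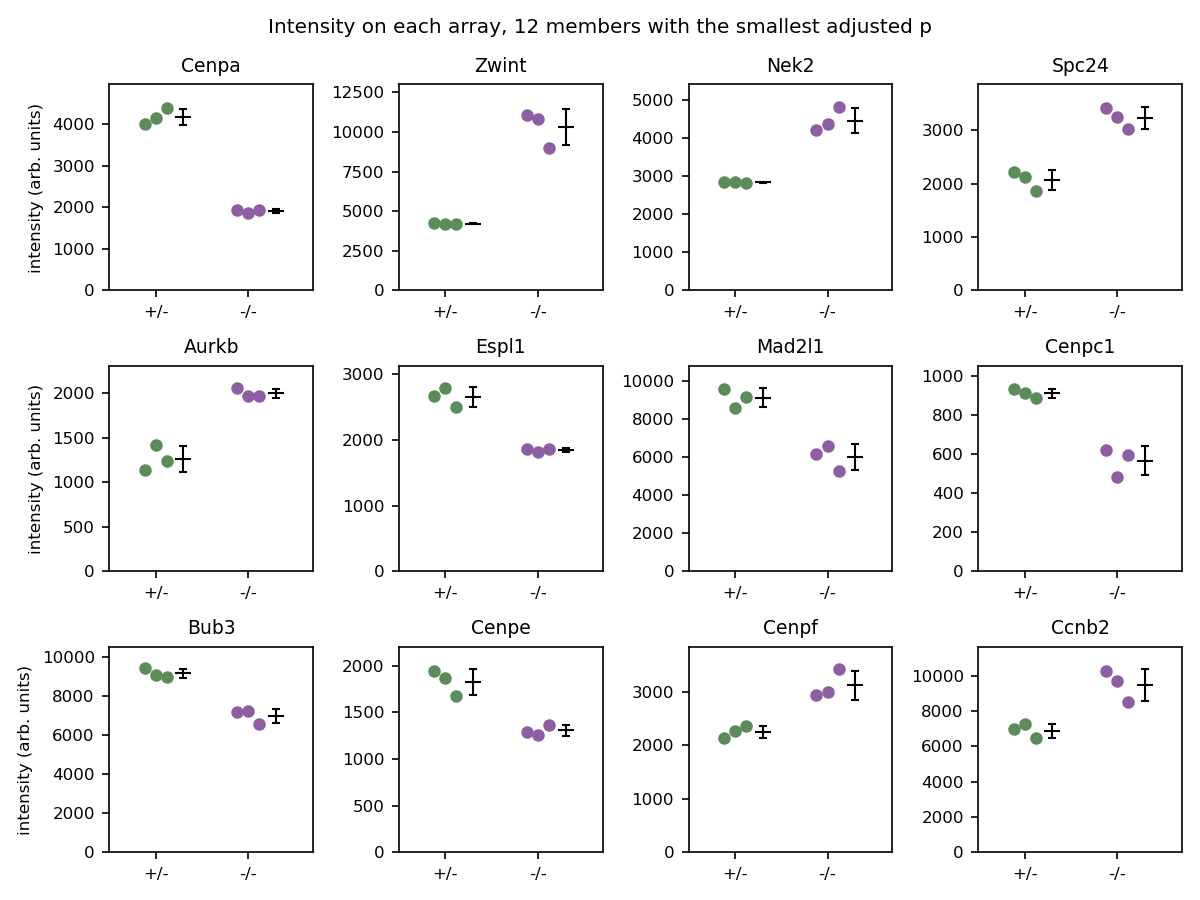
Intensity (arbitrary units, linear axis from 0) on each of the 6 arrays for the 12 members with the smallest adjusted p, with a point for each array in the order of its replicate number and a bar for the mean ± SD of each line (+/- heterozygous, -/- null). For Zwint the null points lie from 8997 to 11081 and the heterozygous points from 4178 to 4278, and for Cenpa the null points lie from 1871 to 1941 and the heterozygous points from 3999.6 to 4384.

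Among the 4 measured cyclins and Cdk1, 1 passed higher and 2 lower, with a median of -0.20. Ccnb2, the second mitotic B-type cyclin, read 6959, 7241 and 6458 in heterozygous and 10261, 9718 and 8498 in null cells. All null arrays were above all heterozygous arrays (1.38-fold; log2 difference 0.46 ± 0.08 (SE), adjusted p = 5.12e-04). Ccnf, an F-box protein of the cyclin family that marks substrates for destruction, read 4676, 4915 and 4428 in heterozygous and 3949.7, 3678 and 3751 in null cells and was lower on each null array (log2 difference -0.30 ± 0.07 (SE), adjusted p = 0.00279). Ccna2, the cyclin A of S phase and early mitosis, measured 6475 ± 475 (heterozygous) and 5032 ± 598 (null; SD, n = 3) and also passed lower (log2 difference -0.37 ± 0.09 (SE), adjusted p = 0.00588). Ccnf and Ccna2 no longer passed with arrays centred on their medians. Cdk1, the kinase that these cyclins activate, read 8279, 8368 and 7786 in heterozygous and 7899.8, 7919.5 and 7049 in null cells. The groups overlapped, and the difference of -0.10 had a 95% interval of -0.24 to 0.05 (adjusted p = 0.256).

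Of the 4 regulators of mitotic entry, only Wee1 passed. Wee1, the kinase that holds Cdk1 inactive, measured 1965 ± 114 (heterozygous) and 2480.3 ± 179.7 (null; SD, n = 3), higher on each null array (log2 difference 0.34 ± 0.08 (SE), adjusted p = 0.00419). Its antagonists, the phosphatases Cdc25b and Cdc25c, did not pass, at -0.05 (95% interval -0.37 to 0.26) and -0.20 (-0.42 to 0.02). Foxm1, the transcription factor of many late cell cycle genes, read 484, 425 and 520.1 in heterozygous and 361, 427 and 384 in null cells. The groups overlapped, since null replicate 2 lay above heterozygous replicate 2. The difference was -0.29 with an adjusted p of 0.0674, and of the 19 alternatives it passed only without heterozygous replicate 2 (0.0445).

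The mitotic kinases did not move as a block. Of Plk1, Plk4, Aurka and Nek2, 2 passed lower, 1 passed higher and 1 did not pass, with a median of -0.11. Nek2, a kinase of centrosome separation, read 2844, 2854 and 2830.2 in heterozygous and 4204, 4359.8 and 4818 in null cells. The heterozygous arrays were nearly level and every null array was above them, a 1.57-fold increase (log2 difference 0.65 ± 0.07 (SE), adjusted p = 1.58e-05). Plk1, the polo kinase that acts from entry to cytokinesis, read 3819.9, 3789.8 and 3586 in heterozygous and 3097, 2898 and 2807 in null cells, lower on each null array (log2 difference -0.35 ± 0.07 (SE), adjusted p = 0.00117). Aurka, the spindle pole Aurora kinase, read 5303, 5125 and 4631 in heterozygous and 3899, 4258 and 3695 in null cells, again with no overlap (log2 difference -0.35 ± 0.08 (SE), adjusted p = 0.00289). Neither Plk1 nor Aurka passed with arrays centred on their medians. Tpx2, which activates Aurora A on the spindle, read 4555, 4256 and 4043 in heterozygous and 3431, 3196 and 2955 in null cells and was also lower (log2 difference -0.42 ± 0.08 (SE), adjusted p = 6.98e-04). Plk4, the kinase that starts centriole duplication, was at 0.13 (95% interval -0.03 to 0.28), not passing although its groups did not overlap.

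In the chromosomal passenger complex, which corrects faulty attachments, the kinase and its partners differed. Aurkb, Aurora B itself, read 1138, 1421 and 1239 in heterozygous and 2057, 1974 and 1969 in null cells. The null arrays were close together and all above the heterozygous arrays (1.59-fold; log2 difference 0.67 ± 0.09 (SE), adjusted p = 8.60e-05). Birc5, survivin, read 6651, 6713 and 6209 in heterozygous and 5441, 5366 and 5479 in null cells and passed lower (log2 difference -0.26 ± 0.06 (SE), adjusted p = 0.00338), though not with arrays centred on their medians. The scaffold Incenp and the targeting subunit Cdca8 did not pass, at -0.08 (95% interval -0.20 to 0.05) and -0.14 (-0.26 to -0.01). The other 3 tested probe sets of Incenp passed lower, at -0.23, -0.36 and, for a dim one, -1.38. Incenp passed lower with the mean over its probe sets (-0.51, adjusted p = 0.00107) and with shared-sequence probe sets left out (-0.23, 0.022), and so did Cdca8 (-0.15, 0.0471, and -0.25, 0.0464). The median of these 4 genes was -0.11.

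Of the 5 spindle checkpoint genes, 2 passed lower and none higher (24.3% and 24.5% of all tested genes), with a median of -0.16. Mad2l1 encodes Mad2, which binds and holds the APC/C activator Cdc20, and read 9594, 8612 and 9197 in heterozygous and 6156, 6592 and 5289.7 in null cells. The groups were well apart, and the level was 1.52-fold lower in null cells (log2 difference -0.61 ± 0.08 (SE), adjusted p = 1.05e-04). Bub3, which brings the Bub kinases to the kinetochore, read 9442, 9077 and 8986 in heterozygous and 7190.0, 7222 and 6586 in null cells, likewise without overlap (log2 difference -0.39 ± 0.06 (SE), adjusted p = 2.95e-04). Bub1, the kinase that Bub3 recruits, read 3772, 3675 and 3734 in heterozygous and 3944, 3585 and 3995 in null cells. Its groups overlapped and the difference was 0.04 (95% interval -0.10 to 0.19, adjusted p = 0.631). Bub1b, encoding BubR1, was at -0.16 (-0.35 to 0.03) and passed without null replicate 1 (adjusted p = 0.0438) and with a replicate block (0.0412). The kinase Ttk, Mps1, was at 0.00 (-0.21 to 0.21).

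The genes of the anaphase switch were split. Cdc20, which activates the APC/C at anaphase, read 15647, 15789 and 17243 in heterozygous and 17346, 17028 and 15327 in null cells. The groups overlapped, with a difference of 0.03 and a 95% interval of -0.12 to 0.18 (adjusted p = 0.75). Fzr1, the activator that follows it, was at 0.15 (-0.06 to 0.36). Espl1, separase, read 2665, 2788 and 2499 in heterozygous and 1858, 1817 and 1864 in null cells and was 1.43-fold lower with no overlap (log2 difference -0.52 ± 0.07 (SE), adjusted p = 8.75e-05). Pttg1, securin, the inhibitor of separase, measured 9194 ± 610.3 (heterozygous) and 11827 ± 1415 (null; SD, n = 3) and passed higher (log2 difference 0.36 ± 0.09 (SE), adjusted p = 0.00553). Enzyme and inhibitor thus moved in opposite directions in the main fit, on chromosomes 15 and 11 respectively. Pttg1 did not pass with chromosomes centred (0.06, adjusted p = 0.591) or without an intensity trend in the variance (0.0544). Its sign turned, without passing, with the mean over its probe sets (-0.19) and with shared-sequence probe sets left out (-1.48). The median of the 4 genes was 0.09.

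Condensin I, which compacts mitotic chromosomes, had 1 subunit higher and 2 lower of 5, with a median of -0.21. Ncaph, the kleisin subunit, read 1857, 2122 and 2489 in heterozygous and 2730.1, 3072 and 3769 in null cells. No arrays overlapped, but the spread within each line was wide and the increase was 1.48-fold (log2 difference 0.56 ± 0.13 (SE), adjusted p = 0.00316). Ncapd2, a regulatory subunit, read 3938, 3771 and 3458 in heterozygous and 3067, 2969 and 2785 in null cells and passed lower (log2 difference -0.34 ± 0.07 (SE), adjusted p = 0.00234), though not with arrays centred on their medians. The ATPase subunit Smc2 passed lower at -0.25 (adjusted p = 0.019), but not without heterozygous replicate 1 (0.078) or 3 (0.0558) or null replicate 1 (0.0843) or 2 (0.0508). Its partner Smc4 did not pass, at 0.13 (95% interval -0.01 to 0.27), nor did Ncapg, at -0.21 (-0.41 to 0.00), which passed without heterozygous replicate 3 (adjusted p = 0.0235). Ncapg also passed with a replicate block (adjusted p = 0.0493) and with array weights (0.0251).

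Spindle motors and Tpx2 had 1 gene higher and 3 lower of 5, with a median of -0.19. Kif23, the midzone motor of cytokinesis, passed higher at 0.28 (adjusted p = 0.00689). Kif11, the motor that pushes spindle poles apart, passed lower at -0.24 (adjusted p = 0.0366), and Kif20a, a motor of the central spindle, at -0.19 (0.0272). Both calls were lost when heterozygous replicate 1 or 2 or null replicate 1 or 2 was left out, with adjusted p of 0.0606 to 0.142 for Kif11 and 0.0506 to 0.0986 for Kif20a. Neither they nor Smc2 passed with arrays centred on their medians. The depolymerase Kif2c did not pass, at -0.16 (95% interval -0.31 to 0.00), although it passed lower without null replicate 3 (adjusted p = 0.0302), with the mean over its probe sets (-0.39, 0.00682) and with shared-sequence probe sets left out (-0.22, 0.0142). Kif2c passed lower with array weights as well (-0.20, adjusted p = 0.0198). The proliferation marker Mki67 read 2711, 2770.1 and 2834 in heterozygous and 2454, 2537 and 2901 in null cells. Its groups overlapped, with a difference of -0.08 (95% interval -0.25 to 0.09, adjusted p = 0.422). Top2a, the topoisomerase that untangles sister chromatids, was at 0.05 (-0.08 to 0.18), so that neither general marker of cycling cells passed in the main scaling. Top2a depended on the setting. It passed higher with arrays centred on their medians (0.21, adjusted p = 0.0318). It passed lower with chromosomes centred (-0.24, 0.0068), with the mean over its probe sets (-0.18, 0.0427) and with shared-sequence probe sets left out (-0.42, 0.0176).

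A larger share of members passed higher on chromosomes 1 and 11 than elsewhere, as it did among all tested genes. Elsewhere members did not follow their chromosome throughout. On chromosome 9, with a median of -0.03 over all tested genes, 3 of 4 members passed higher. Over all tested genes, the median difference was 0.31 on chromosome 1 (724 genes) and 0.29 on chromosome 11 (1094 genes), and between -0.15 and -0.01 on every other chromosome. Of the 7 members on chromosomes 1 and 11, 4 passed higher (Nek2, Cenpf, Aurkb and Pttg1) and 1 lower (Birc5), with a median of 0.36. There, 42.9% of all 1818 tested genes passed higher and 9.96% lower. Of the 42 members on other chromosomes, 7 passed higher (16.7%) and 16 lower (38.1%), with a median of -0.16, against 21.4% and 26.7% of the 11109 genes there. When each chromosome was centred on its own genes, Nek2 was at 0.31 (adjusted p = 0.00389) and Aurkb at 0.37 (0.0048). Cenpf at 0.13 (0.224) and Pttg1 at 0.06 (0.591) no longer passed, and Top2a, on chromosome 11, passed lower at -0.24 (0.0068). Whether either line carries extra copies of these chromosomes was not tested. Zwint on chromosome 10 and Cenpa on chromosome 5 lie elsewhere.

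**Figure D3:**
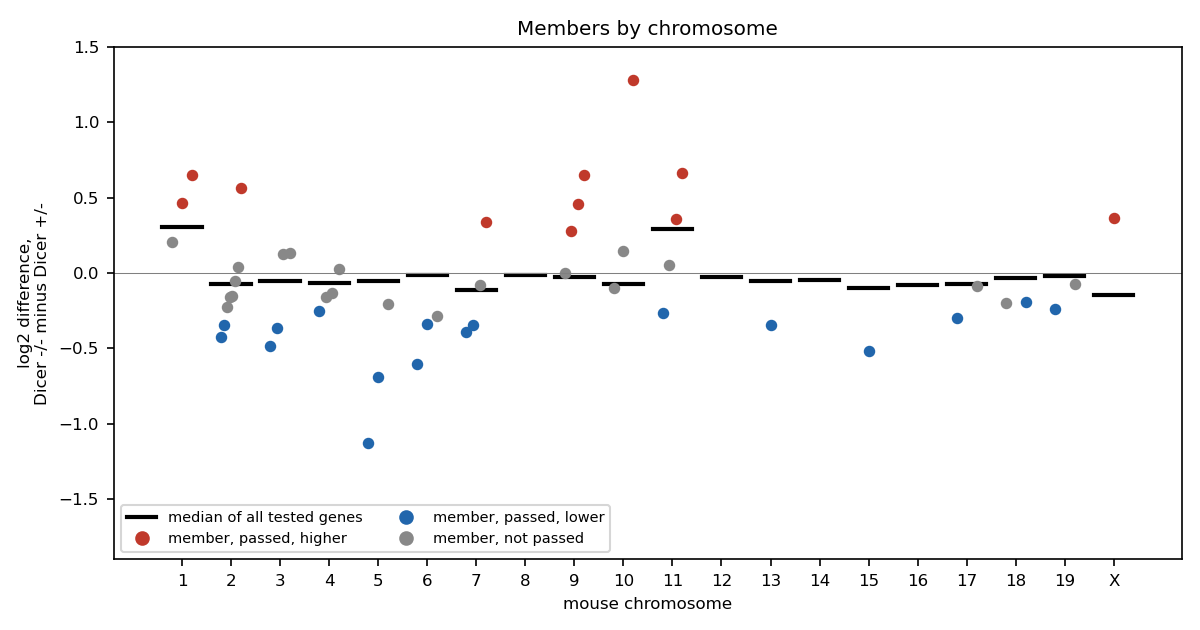
Log2 difference (null minus heterozygous) of each measured member by chromosome, as points coloured by the result of the test, with a bar at the median of all tested genes of that chromosome. The bars of chromosomes 1 and 11 stand at 0.31 and 0.29, and those of all others lie between -0.15 and -0.01.

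Members were read by 115 probe sets in all, of which 103 passed the filter, and 31 members had more than 1 over the filter. Tested over all probe sets, 49 of the 103 passed (47.6%), 17 higher and 32 lower, where 40.1% of all 26545 probe sets passed in either direction. Zwint alone had probe sets that passed in opposite directions. Beside 1423724_at (1.28), Zwint's 1429786_a_at was at 0.76, 1429787_x_at at 0.26 and 1427539_a_at at 0.01, the last with 3809 ± 145 (heterozygous) and 3839.7 ± 15.7 (null) (SD, n = 3). Its dimmer probe sets 1427540_at and 1444717_at passed lower. The first was at -0.88, with 271 ± 39.7 (heterozygous) and 148 ± 28.6 (null), and the second at -1.45, with 172 ± 40.4 (heterozygous) and 61.9 ± 1.21 (null). The increase of Zwint is therefore that of some of its probe sets, and which transcripts each one reads was not tested. With the mean over its probe sets, Zwint was at -0.0032 and did not pass. Cenpa rested on a single probe set, since its other 2 were under the filter.

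Other members had probe sets that differed in size or in the result of the test. Aurka had a dim probe set at -2.95, with 53.3 ± 3.44 (heterozygous) and 8.19 ± 5.31 (null), beside the one at -0.35, and both passed lower. The other probe set of Ccna2 was at 0.12, with 4147 ± 257 (heterozygous) and 4509 ± 174 (null), and did not pass. Both of Aurkb passed higher (0.67 and 0.69), and 4 of the 5 of Smc2 passed lower. The brighter of Pttg1 were at 0.36 and 0.54, with a dim one at -1.48 that did not pass. The probe sets of Kif11 were at -0.24, -0.51 and -0.75, the first with an adjusted p of 0.0531 over all probe sets. Cdc20 had 1 probe set that passed lower (-0.27, adjusted p = 0.0223) beside the one at 0.03, and so had Top2a (-0.42, 0.0247) beside the one at 0.05. Bub3 had a dimmer probe set at 0.06 beside the one at -0.39, and only the latter passed. Tpx2 had a probe set at 0.02, with 1493 ± 55.0 (heterozygous) and 1522 ± 139 (null), beside the one at -0.42, and again only the latter passed. The second of Nek2 was at 0.32, not passing (adjusted p = 0.187). With the mean over a gene's probe sets, Ccna2, Ccnf, Wee1, Nek2, Bub3, Tpx2 and Smc2 kept their sign and no longer passed. The difference was close to that of the single probe set for Ccnf (-0.28, adjusted p = 0.0583) and larger for Smc2 (-0.47, 0.0503). It was smaller for Ccna2 (-0.12), Wee1 (0.23), Nek2 (0.14), Bub3 (-0.28) and Tpx2 (-0.18).

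**Figure D4:**
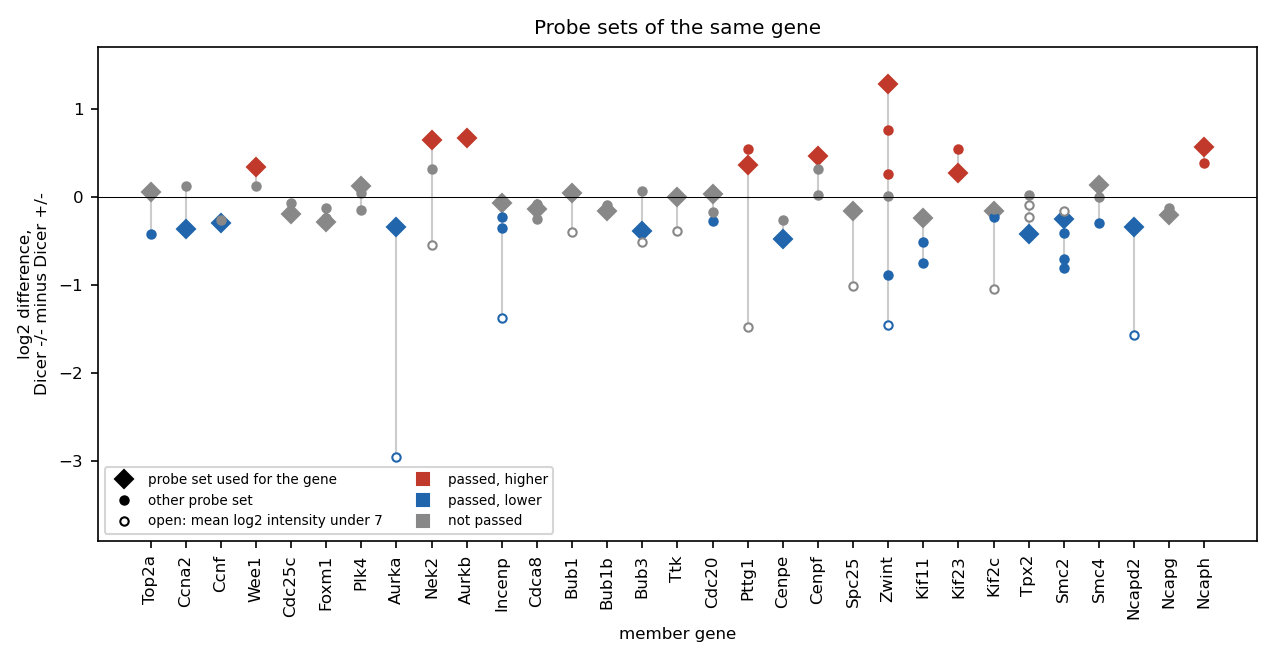
Log2 difference (null minus heterozygous) of every tested probe set of the 31 members with more than 1, with a diamond for the probe set that stands for the gene, open circles for dim probe sets (mean log2 intensity under 7) and colour for the result over all probe sets. Zwint spreads from -1.45 to 1.28, and the diamond of Kif11 did not pass over all probe sets (adjusted p 0.0531) although it did over genes (0.0366).

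Other genes of the same machinery, in 10 lists outside the members, also went both ways. Of 106 genes listed, 103 were measured, and 33 passed higher (32.04%, against 24.5% of all tested genes) and 32 lower (31.1%, against 24.3%), with a median of -0.02. The counts of single lists are to be read against the same shares of all genes. As a comparison from another part of the cycle, of 28 measured DNA replication genes 6 passed higher and 6 lower, with a median of -0.09. Genes of the APC/C and its partners were 4 higher and 6 lower of 15. Cdc26, a small structural subunit of the APC/C, measured 3653 ± 149.7 (heterozygous) and 1154 ± 124 (null; SD, n = 3), the largest decrease of the lists (3.17-fold; log2 difference -1.67 ± 0.09 (SE), adjusted p = 8.08e-08). The inhibitor Fbxo5 and Ube2s, the enzyme that extends ubiquitin chains for the APC/C, also passed lower, at -0.89 and -0.77.

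Among 11 other centromere genes, 2 passed higher and 4 lower. Mis18a and Oip5, whose products prepare centromeres for new CENP-A, passed lower at -0.64 (adjusted p = 2.29e-04) and -0.45 (0.0073), as did the centromere network gene Cenpo at -0.55 (0.00552). Oip5 did not pass with arrays centred on their medians. Of 13 genes of the Mis12, Knl1 and RZZ complexes, 5 passed higher and 3 lower. Spdl1, the dynein adaptor Spindly, was at 0.93 and Mis12 at 0.89, both on chromosome 11, while Nsl1, a partner of Mis12 on chromosome 1, was at -0.76. Cohesin and its protectors had 1 higher and 4 lower of 12. The cohesin regulator Pds5a was at -0.96 (not passing without probe sets that share sequence, at -1.08), the subunit Stag2 at -0.43 and the centromeric protector Sgo2a, on chromosome 1, at 0.87. Condensin II had Ncapg2 (0.53) and Ncaph2 (0.48; -0.0061 with the mean over its probe sets) higher and Ncapd3 (-0.40) lower.

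Of 17 other spindle and midzone genes, 6 passed in each direction. The motor Kif14, on chromosome 1, measured 35.6 ± 13.4 (heterozygous) and 91.1 ± 8.30 (null; SD, n = 3), near the filter, and was higher (log2 difference 1.43 ± 0.39 (SE), adjusted p = 0.0102). The minus-end motor Kifc1 (-0.73) and the cytokinesis motor Kif20b (-0.55) passed lower. The cytokinesis list had 3 higher and 0 lower of 6. Cep55, which recruits the machinery of the final cut, measured 2745 ± 248 (heterozygous) and 7349 ± 196 (null; SD, n = 3) and was 2.68-fold higher (log2 difference 1.42 ± 0.07 (SE), adjusted p = 8.17e-08). Citron kinase, Cit (0.70), and anillin, Anln (0.32), also passed higher, though not Cit with the mean over its probe sets (-0.26) or Anln without an intensity trend in the variance. Centriole genes were 4 higher and 2 lower of 9, with the cartwheel protein Sass6 at 0.91 (0.15 with the mean over its probe sets, not passing), gamma-tubulin, Tubg1, on chromosome 11 at 0.85, and the Plk4 receptor Cep152 at -1.36. Cep152 measured 215 ± 28.4 (heterozygous) and 83.4 ± 6.88 (null; SD, n = 3).

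Regulators of mitotic phosphorylation had 1 higher and 3 lower of 8. Pkmyt1, a kinase that like Wee1 inhibits Cdk1, was at 0.41 (not passing with the mean over its probe sets), the phosphatase inhibitor Ensa at -0.44 and the microtubule-associated Gtse1 at -0.49. The list of MuvB, DREAM and B-Myb genes, whose binding to the members' promoters was not measured here, had 5 higher and 3 lower of 9, with a median of 0.34. Rbl2 encodes p130, the pocket protein of the repressive DREAM complex, and read 162, 145 and 92.9 in heterozygous and 636, 541 and 476 in null cells. The null arrays were all far above the heterozygous arrays, a 4.22-fold increase (log2 difference 2.08 ± 0.20 (SE), adjusted p = 8.93e-06). Its relative Rbl1, p107, was at 0.98 (adjusted p = 1.44e-04). The MuvB subunit Lin9, on chromosome 1, was at 0.62 (0.00774) and no longer passed with chromosomes centred. Whether these levels bear on those of the members was not tested.

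**Figure D5:**
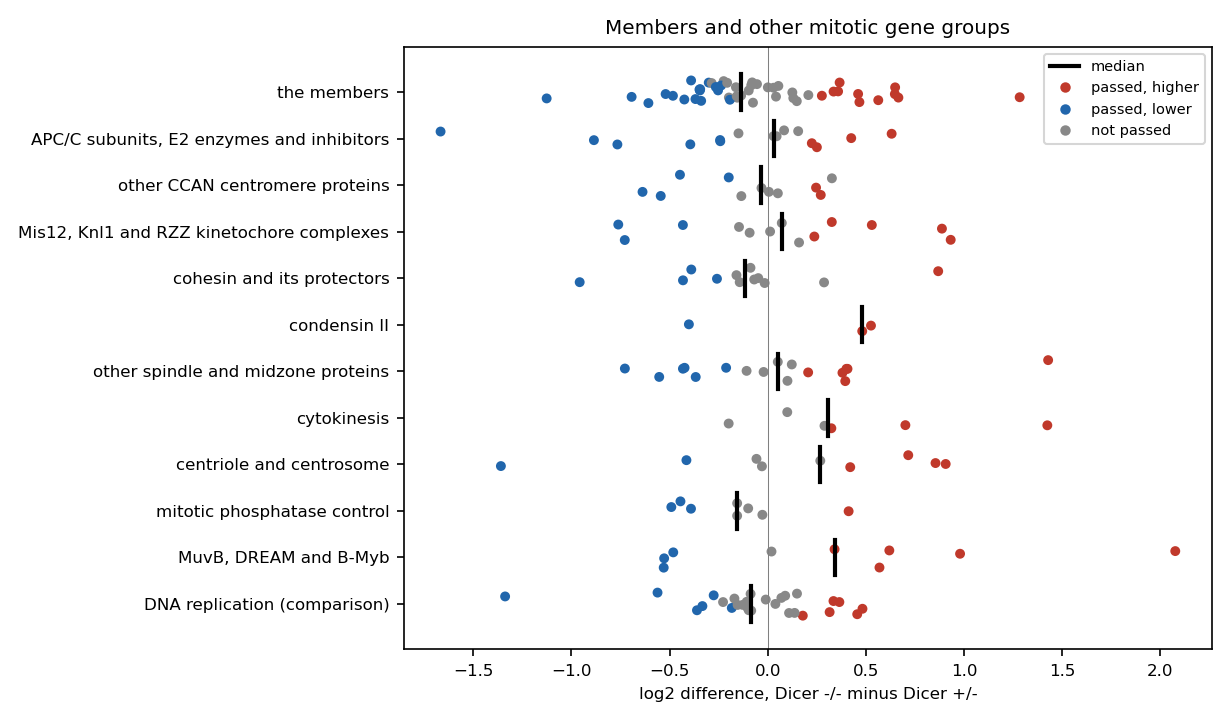
Log2 difference (null minus heterozygous) of each measured gene among the members, in the 10 lists outside them and in the DNA replication list, as points coloured by the result of the test, with a bar at each list's median. Cdc26 at -1.67 and Rbl2 at 2.08 are the ends of the 10 lists.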

How the data were processed

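The authors deposited linear intensities in arbitrary units, 1 for each of 45101 probe sets on 6 arrays, as the values themselves show. Per the labels' protocols, total RNA was amplified to biotinylated cRNA. The submitters' processing notes name GCRMA and no other tool. The values are not on its log2 scale, so its role, the background step and detection calls are unknown here. Array medians were 50.6, 49.1 and 52.7 (heterozygous) and 46.5, 44.9 and 45.5 (null), and the trimmed mean was 500 on each. The number of arrays limits the precision.

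Left out were 64 control probe sets, and 932 with several and 9160 with no gene symbol in the platform annotation; 34945 had 1 symbol, and 0 symbols changed when updated. After taking log2, a probe set was kept if it reached 5 (intensity 32) in at least 3 arrays, and the one with the highest mean stood for its gene, which gave 12927 genes. The lines were compared by limma 3.58.1 (R 4.3.3; lmFit and eBayes, trend over intensity) in a two-sided test with no other term, with Benjamini-Hochberg adjustment over all genes tested. Fold changes come from means of log2 values, and means ± SD are of linear intensities. A second fit covered all 26545 probe sets over the filter.

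The members and gene lists were chosen with earlier results of these data known. Values on every array are given for the 20 members with the smallest adjusted p, those at least 2-fold different, and several fixed genes (Foxm1, Cdk1, Bub1, Cdc20 and Mki67 among them), and for Cenpi and Rbl2, which were added after their values were seen. Of each list outside the members, up to 3 genes with the largest difference among those that passed are named. Same-numbered replicates of the lines correlated at 0.033, 0.028 and 0.076 in their deviations from the group means, and the labels tie them to no shared culture, so the numbers were not taken as pairs. Alternatives were other low-value filters and floors, log2(intensity + 16), other variance priors, a replicate block, centring or quantile normalization of arrays, centring of chromosomes, other choices of probe set, array weights, and leaving out each array. All arrays carry the same day of analysis in the labels, and no batch is known.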

Additional observations from a re-analysis of the deposited data

How the results depend on the processing

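With arrays centred on their medians, 18 members passed higher and 7 lower (32.3% and 16.3% of all genes), 0 were 2-fold lower and the members' median was 0.019. With the mean over a gene's probe sets, 7 passed higher and 16 lower (21.3% and 23.7% of all genes). There, 0 were 2-fold higher and 2 were 2-fold lower, Cenpa (-1.13) and Aurka (-1.65), whose mean takes in its dim probe set. Without probe sets that share sequence, 0 were 2-fold lower, Cenpa having no other probe set over the filter, and the median was -0.22. With a log2 filter of 7, 525 of all genes were 2-fold lower, fewer genes being tested. Leaving out each array in turn gave 11 members higher (11 to 11), 14 to 19 lower and 1 in each direction past 2-fold (1 to 1), with a median of -0.14 to -0.12. Over all genes it gave 2778 to 3023 higher, 2580 to 3116 lower, and 883 to 958 and 669 to 848 past 2-fold. With eBayes without an intensity trend, 10 passed higher and 13 lower (21.6% and 21.3% of all genes). Ccna2, Pttg1, Kif11, Kif20a and Smc2 no longer passed there. With the replicate block, 11 members passed higher and 19 lower (26.5% and 26.2% of all genes). Each sample correlated best with its own number, but at 0.076 or less, and the labels name no pairs.

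Among results that passed in either setting, and among named genes outside the members, signs turned with the mean over probe sets for Top2a (-0.18), Pttg1 (-0.19), Zwint (-0.0032), Ncaph2 (-0.0061) and Cit (-0.26). Without probe sets that share sequence they turned for Top2a (-0.42), Bub3 (0.064), Cdc20 (-0.27) and Pttg1 (-1.48), and with chromosomes centred for Top2a (-0.24). Of members that passed in neither setting, signs also turned for Bub1, Ttk, Cdc20 and Smc4 with the mean, for Plk4 without probe sets that share sequence, for Mki67, Ndc80 and Nuf2 with chromosomes centred, for Mki67, Cdk1, Cdc25b, Incenp, Cdca8 and Ndc80 with arrays centred, for Ttk with quantile normalization, and for Ttk, Cdc20 or Cdc25b when some arrays were left out. These settings read other probe sets, subtract the median of a chromosome or array, make the arrays' distributions alike or leave out an array. What turned each sign was not tested. Of the 28 members that passed, 11 passed under each of the 19 alternatives in which they were tested: Ccnb2, Aurkb, Cenpi, Spc24, Kif23 and Ncaph higher, and Mad2l1, Espl1, Cenpa, Cenpc1 and Cenpe lower. Aurkb and Cenpa could not be tested without probe sets that share sequence. Of the 21 that did not pass, 7 passed under none. The members' median less that of all genes was -0.20 to -0.09 over the alternatives. Intensities near 32 may be background, which limits Kif14 and the dim probe sets.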
